A study of Bos taurus with 15 samples.

Results

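ENSBTAG00000040367, ENSBTAG00000047700, ENSBTAG00000037510, and ENSBTAG00000050052 are 4 cattle genes that the gene list of the deposited counts gives by Ensembl id alone, with no symbol. They were found by these ids among 27270 listed genes, of which 7540 carry their id as their name. The genes were put together because earlier results of these data had shown them high in adult (AD) and low in newborn (NB) libraries, so their AD to NB ratios are a description and were not tested. What the choice did not use is the kind of cell that held their RNA. That was described here with 7 marker classes in each library, newborn beside adult.

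Counts came from droplet single-cell RNA sequencing (scRNA-seq), in which RNA carries the barcode of its cell and a unique molecular identifier (UMI) that lets every captured molecule be counted once. The 15 libraries were from Holstein dairy cattle, with 11 NB libraries (liver and salivary gland, the reticulum, omasum, and abomasum of the stomach, and 6 segments of intestine: rectum, colon, cecum, ileum, jejunum, duodenum) and 4 AD libraries (colon, cecum, duodenum, jejunum). No agent or altered allele is named for either stage, and ages in days are not given in the sources used here. The AD tissues came from 1 lactating cow, and the NB tissues from 3 calves, without the calf of each library. AD duodenum and cecum were dissociated with a lamina propria kit and AD jejunum and colon with a multi tissue kit, followed by red blood cell lysis, while NB intestine was treated with EDTA and trypsin first. Stage, animal, and dissociation therefore cannot be told apart. Each tissue and stage had 1 library, so there was no replicate error and no test between stages, and the 95% intervals given here cover counting error only.

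The 7 classes rest on genes with well-known roles. CD3E is a signaling chain of the T cell receptor, MS4A1 is a surface protein of B cells, and JCHAIN is the small chain that joins secreted IgA and IgM in plasma cells. C1QA is a complement subunit made by macrophages, EPCAM is an adhesion protein of epithelium, COL1A2 is a collagen chain of stroma, and PECAM1 is a junction protein of endothelium. The gut wall is a large store of antibody-secreting plasma cells and of resident T cells, both of which build up after birth. A barcode belonged to a class when it had at least 1 UMI of that marker, or at least 0.5% of its UMIs from JCHAIN (JCHAIN-high), and no marker of another class. A class was used in a library when it had at least 50 barcodes.

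The libraries held 17707625 to 129458578 UMIs (median 82195756), and 129682 of 172405 barcodes were kept. The median UMIs per kept barcode were 4538 to 9147 in NB and 3626 to 3966 in AD libraries. Although labelled as intestine, the AD libraries held mostly leukocytes: CD3E barcodes made up 25.5 to 78.0% of an AD library (median 68.4%) and 0.0134 to 47.8% of an NB library (median 2.43%), and EPCAM barcodes numbered only 23 to 256 in AD libraries. Barcodes with markers of several classes made up 11.1 to 19.7% of AD and 1.45 to 34.1% of NB libraries. Between 4.08 and 5.21% of the deposited NB barcode sequences and 4.12 to 4.33% of the AD ones also occurred in another library. In bulk sums over a library, more cells of a type and more RNA per cell cannot be told apart, so levels are given per library first and then within classes.

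Levels are in CPM, the UMIs of the gene per 1000000 UMIs of the library or class. ENSBTAG00000040367 was at 579 CPM in AD duodenum, 415 in jejunum, 625 in cecum, and 525 in colon. In the 11 NB libraries it ranged from 0.463 to 1.34 CPM with a median of 0.728, from 22 to 78 UMIs a library. No NB library came near an AD library for this gene.

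ENSBTAG00000047700 was at 69061 CPM in AD duodenum, 30092 in jejunum, 18822 in cecum, and 20899 in colon. It had more UMIs than any other gene in each of the 4 AD libraries. NB libraries ranged from 0.0408 CPM in reticulum to 173 in cecum, with a median of 0.975, and the next highest were ileum (128), colon (107), liver (44.5), and rectum (8.29). The groups did not overlap for this gene either, although the NB libraries themselves spread over several orders of magnitude.

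ENSBTAG00000037510 was at 384 CPM in AD duodenum, 234 in jejunum, 520 in cecum, and 481 in colon. NB libraries ran from 0 UMIs in reticulum to 485 CPM in salivary gland, with a median of 47.5, and liver followed at 142 CPM. The NB salivary gland thus lay inside the AD range, above all AD libraries but cecum.

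ENSBTAG00000050052 was at 273 CPM in AD duodenum, 158 in jejunum, 341 in cecum, and 360 in colon. NB libraries ran from 0 UMIs in reticulum and omasum to 179 CPM in salivary gland, with a median of 12, and liver was at 45.2 CPM. The NB salivary gland was again above AD jejunum. AD and NB libraries thus did not overlap for ENSBTAG00000040367 and ENSBTAG00000047700 and did for ENSBTAG00000037510 and ENSBTAG00000050052. The genes were chosen for high AD and low NB levels, so this separation is a description and not a test. The share of all genes with such a separation is not given here. The genes are called by their ids in what follows.

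**Figure D1:**
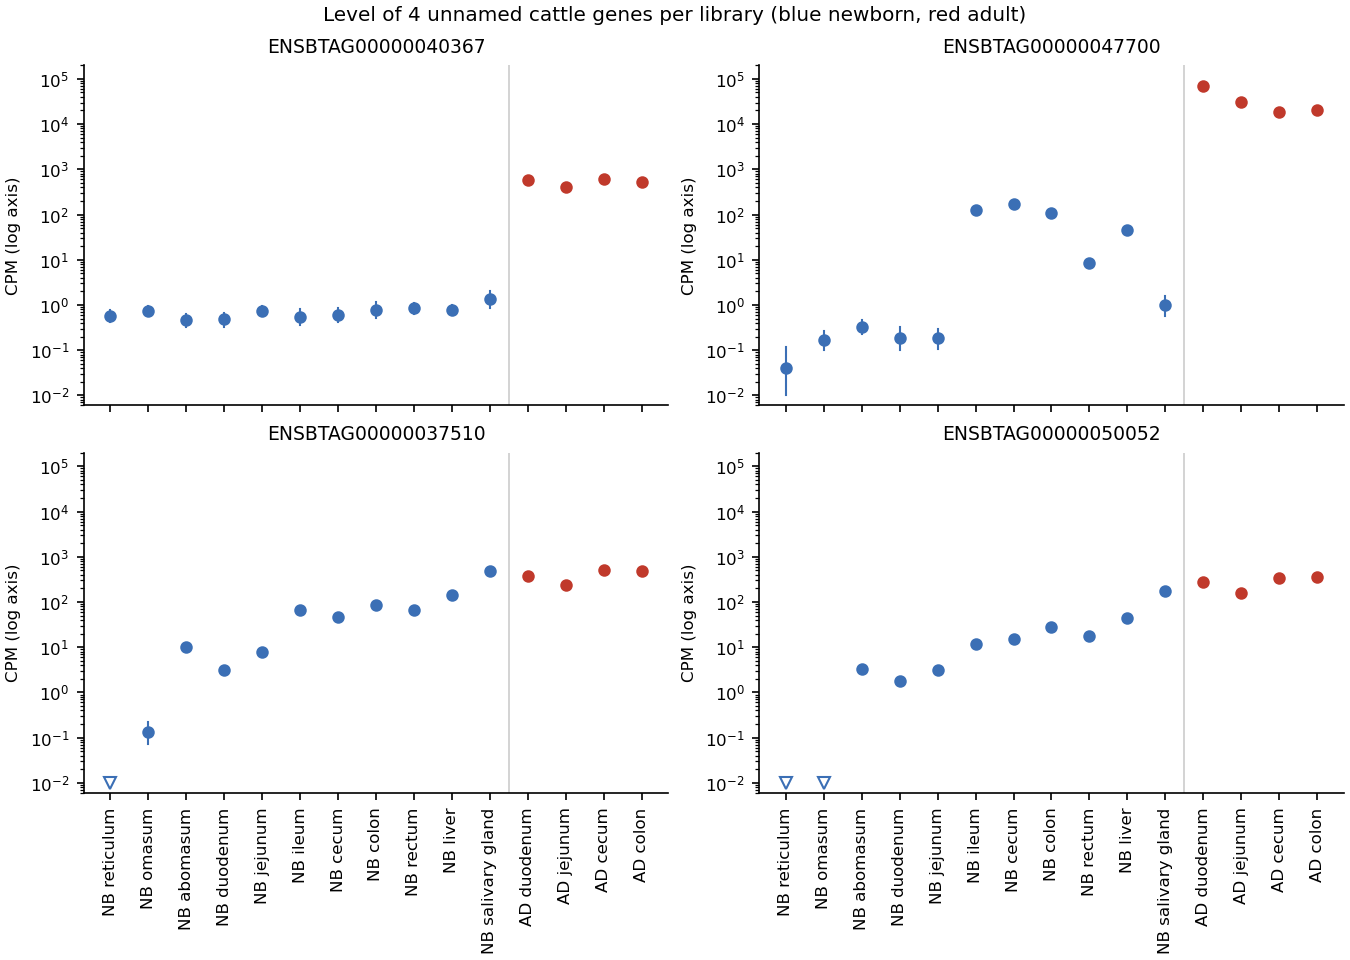
CPM of each of the 4 genes in each library on a log axis, NB in blue and AD in red, with 95% counting intervals as bars and open triangles for libraries with 0 UMIs. The NB salivary gland sits at the AD level for ENSBTAG00000037510 (485 CPM) and ENSBTAG00000050052 (179 CPM), while for ENSBTAG00000040367 all 11 NB libraries lie at or below 1.34 CPM.

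In the tissues with both stages, the AD to NB fold of ENSBTAG00000040367 over all kept barcodes was 1197 (852–1740) in duodenum, 570 (447–741) in jejunum, 1032 (735–1500) in cecum, and 665 (450–1028) in colon. Of all genes tested, 1.58% were past 16-fold in duodenum, 0.928% in jejunum, 0.567% in cecum, and 0.34% in colon, and 13 genes (0.134%) were past it in 4 of 4 tissues. Since the genes were chosen on this contrast, nothing is read from the counts. ENSBTAG00000040367 and ENSBTAG00000047700 were among the 13, and by the smallest log2 ratio over the tissues they ranked 1 (7.91) and 2 (6.76) of all genes.

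ENSBTAG00000047700 was 109-fold (107–111) higher in AD cecum and 196-fold (189–203) in colon. A single NB cecum barcode held most of its UMIs there, and without it the cecum fold was 535 (log2 9.02). In the small intestine it was compared with only 13 UMIs in NB duodenum and 16 in NB jejunum. ENSBTAG00000037510 fell from 123-fold (107–141) in duodenum to 30.4 (28.1–32.8) in jejunum, 10.9 (10.5–11.4) in cecum, and 5.60 (5.39–5.83) in colon, and was past 16-fold in 2 of 4 tissues. ENSBTAG00000050052 was at 155 (130–187), 50.4 (44.7–57.0), 22.9 (21.3–24.6), and 12.9 (12.1–13.8) in the same order, past 16-fold in 3 of 4. The folds of the latter pair were thus lowest in colon. The genes just inside the 16-fold threshold in every tissue had smallest log2 ratios of 4.35 (CD96), 4.28 (CD3D), and 4.22 (TRAT1), all known from T cells, and those just outside were ENSBTAG00000049333 (3.91), CD3G (3.91), and ENSBTAG00000025398 (3.85).

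The class of cells that held each gene differed between the 4 genes. In AD libraries ENSBTAG00000047700 was a gene of JCHAIN-high barcodes, ENSBTAG00000037510 and ENSBTAG00000050052 were highest in CD3E barcodes, and ENSBTAG00000040367 was present in every class with its highest level in MS4A1 barcodes. By the rule of a leading class at least 4-fold over the next in every AD library, ENSBTAG00000047700 was among the genes of JCHAIN-high (0.38% of the 7898 genes tested) and ENSBTAG00000050052 among those of CD3E barcodes (1.09%). The same rule gave MS4A1 to 0.291% and C1QA to 1.19% of genes. ENSBTAG00000040367 and ENSBTAG00000037510 had no leading class by it.

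**Figure D2:**
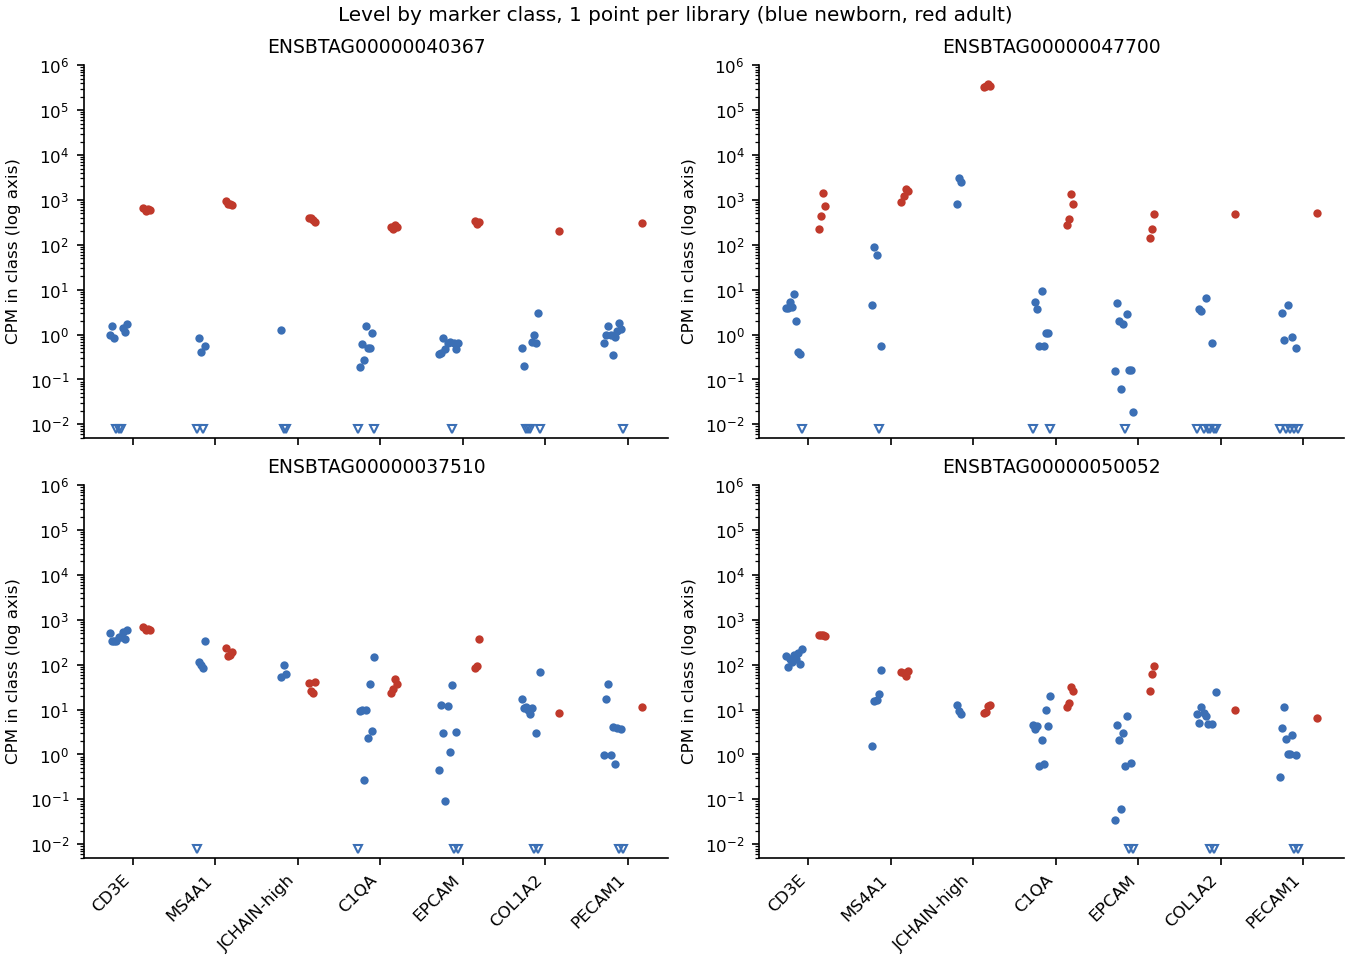
CPM of the 4 genes by marker class on a log axis, with each point 1 library with at least 50 barcodes of the class, NB in blue, AD in red, and open triangles for 0 UMIs. ENSBTAG00000047700 stands out in JCHAIN-high barcodes of both stages, ENSBTAG00000037510 and ENSBTAG00000050052 in CD3E barcodes of both stages, and ENSBTAG00000040367 is separated by stage in every class.

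The classes were checked by their cell type lists without the marker that defined them. In CD3E barcodes CD3D, CD3G, CD2, and CD247 summed to 1461 to 3142 CPM in AD and 496 to 854 in NB libraries. The B cell list without MS4A1 was at 1014 to 1547 CPM in AD and 22.9 to 1717 in NB MS4A1 barcodes, and the plasma cell list without JCHAIN at 3068 to 3444 and 2690 to 5875 CPM in JCHAIN-high barcodes. The list of the class was the highest of the cell type lists in all but 8 of the 77 profiles of a class in a library. The neutrophil list, whose S100A genes keratinocytes also make, was higher in EPCAM barcodes of NB reticulum and omasum, in PECAM1 barcodes of NB reticulum and liver, and in CD3E barcodes of NB liver (1747 against 752 CPM). In MS4A1 barcodes the macrophage list was higher in NB cecum (1197 against 22.9 CPM), the natural killer list in NB liver, and the plasma cell list in AD jejunum (1113 against 1014 CPM). In these 8 profiles another list, kept whole, was above that of the class without its marker. With MS4A1 counted, the B cell list was at 2369 CPM in AD jejunum and 725 in NB liver, above those other lists. In NB cecum it was at 124 CPM, still below. The class thus goes against its name in MS4A1 barcodes of NB cecum. The same holds for PECAM1 barcodes of NB liver, with 5423 CPM of the neutrophil list against 114 of their own.

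ENSBTAG00000040367 was found in barcodes of every AD class that could be measured. In MS4A1 barcodes it was at 828 CPM in AD duodenum, 760 in jejunum, 926 in cecum, and 812 in colon. In CD3E barcodes it was at 635, 587, 660, and 561 CPM in the same order. MS4A1 barcodes were above CD3E barcodes in 4 of 4 AD libraries by a mean log2 ratio of 0.44 ± 0.08 (SD over 4 libraries of 1 cow). Jejunum is included, where the plasma cell list was above the B cell list only with MS4A1 left out of the latter.

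The other AD classes held less of it per UMI but none was near 0. JCHAIN-high barcodes were at 365, 328, 399, and 397 CPM, but 48.5 to 56.0% of their UMIs were from ENSBTAG00000047700 and JCHAIN. With both left out of the total they were at 829, 673, 775, and 787 CPM, above CD3E barcodes (636, 588, 660, and 561) in 4 of 4 libraries and below MS4A1 barcodes (830, 762, 927, and 813). The place of plasma cells in the order therefore turned on the total used, and C1QA barcodes were lowest among the leukocytes at 277, 253, 245, and 227 CPM. EPCAM barcodes were at 326 CPM in jejunum, 344 in cecum, and 292 in colon, PECAM1 barcodes of jejunum at 307, and COL1A2 barcodes of colon at 201. Thinned to 1000 UMIs per barcode, 48.1 to 58.8% of MS4A1 barcodes (90.1 to 93.6% unthinned) had a UMI of the gene, against 42.0 to 47.0% of CD3E (82.5 to 86.5%) and 18.5 to 25.9% of C1QA barcodes (48.1 to 51.5%). No class of the AD libraries lacked the gene to serve as its background. The part of free RNA in these levels was not tested.

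The NB classes held almost none of ENSBTAG00000040367. It lay between 0 and 2.98 CPM in every NB class and library, with the highest value in COL1A2 barcodes of reticulum. CD3E barcodes of NB libraries ran from 0 to 1.73 CPM. No NB barcode held more than 2 UMIs of it, and 6 of the 471 NB UMIs were in barcode sequences that also occurred in an AD library. The barcodes left out by the filters followed their stage, at 157 to 309 CPM in AD and 0 to 0.740 in NB libraries.

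The 17 pairs of a class and a tissue measured at both stages allowed the fold to be given within classes. ENSBTAG00000040367 was past 16-fold in 17 of 17 pairs, with a smallest log2 ratio of 7.14 and a median of 7.77. It was the 1 gene of 11882 tested with this property (0.00842%), and 0 genes had it in the NB direction. In CD3E barcodes of duodenum and jejunum the NB count was 0, so the fold was at least 51.6 and at least 97.9 with the NB count set to 3 UMIs (lower limits of the exact 95% interval 42.0 and 79.6), and in cecum and colon it was 428 and 659. These folds belong to the contrast the gene was chosen on and are a description.

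Over the 21 class profiles of the AD libraries, the genes whose log2 CPM was most like that of ENSBTAG00000040367 were RPS15 (r = 0.974), RPL15 (0.973), RPS6 (0.967), RPL11 (0.965), and RPS10 (0.962), all of which encode ribosomal proteins. The profiles share libraries, depth, and a cow, and r is given as a description. UMIs of ENSBTAG00000040367 per UMI of RPS15 were 0.15 to 0.212 (median 0.184) in the 21 AD profiles and 0 to 0.00118 (median 0.000238) in 56 NB profiles. RPS15 itself was at 2588 to 3152 CPM in AD and 1276 to 3845 in NB libraries, so it did not separate the stages. Among AD profiles the ratio thus varied little between classes, for a gene picked as the most alike there, and the NB counts were too low for such a statement.

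**Figure D3:**
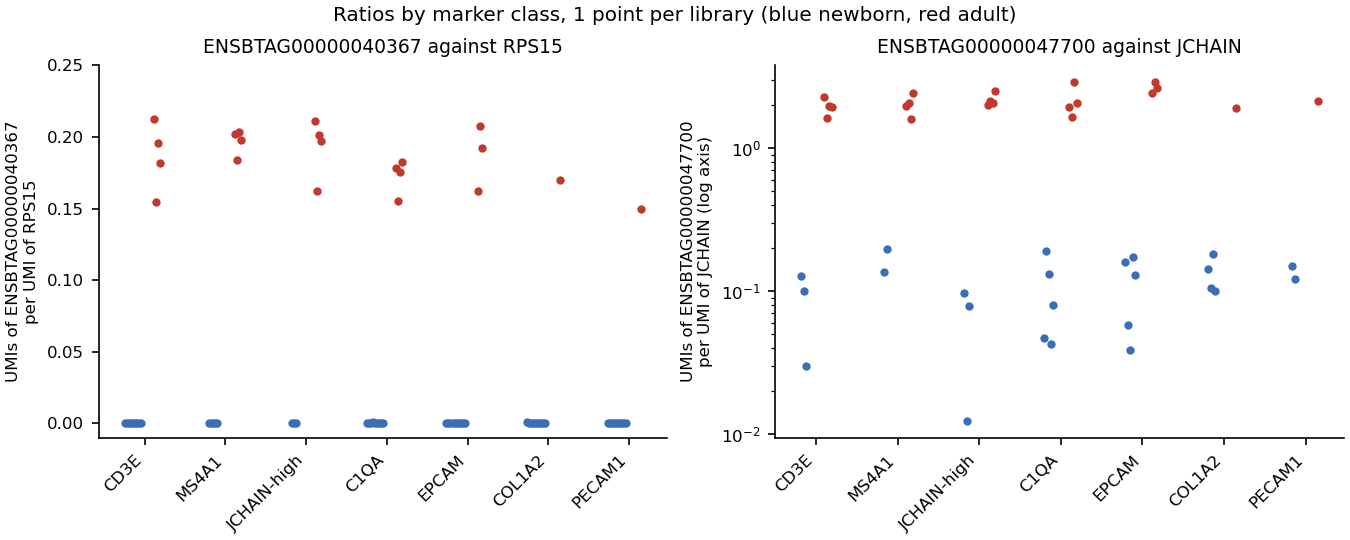
UMIs of ENSBTAG00000040367 per UMI of RPS15 (left, linear axis) and of ENSBTAG00000047700 per UMI of JCHAIN (right, log axis) by marker class, each point 1 library, NB in blue and AD in red. The left ratio lies between 0.15 and 0.212 in AD and at or below 0.00118 in NB profiles, and the right one between 1.58 and 2.88 in AD and between 0.0124 and 0.198 in NB profiles.

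With all 15 libraries (77 profiles), the most alike genes were RPS16 (0.81), ENSBTAG00000047700 (0.79), U2 (0.73), RPL17 (0.73), and ND3 (0.72), a different set of 5. RPS16 was at 929 to 1433 CPM in AD and 242 to 960 in NB libraries, and ND3, a mitochondrial subunit of complex I, at 5119 to 7827 and 892 to 3826. These genes moved with stage as well, though far less. They were picked for their likeness over profiles of both stages, so a move with stage was favored by the choice. In CD3E barcodes of the 4 AD libraries ENSBTAG00000040367 had a log2 ratio of −0.024 ± 0.042 between CD4 and CD8 barcodes. It was higher in 4 of 4 libraries in barcodes with CCR7, a homing receptor (0.31, from 0.15 to 0.49), KIT (0.21), LEF1 (0.20), CD8B (0.096), and CD8A (0.071) than in those without. Splits by the other genes of these lists are not given here. In the gene list ENSBTAG00000040367 stands in the row after ICOS, a costimulatory receptor of T cells. The level of ICOS was 68.8 to 152 CPM in AD CD3E barcodes and at most 2.0 CPM in AD MS4A1 barcodes, unlike that of ENSBTAG00000040367.

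ENSBTAG00000047700 was highest in JCHAIN-high barcodes at both stages. In the AD libraries these barcodes had 373504 CPM of it in duodenum, 347614 in jejunum, 326667 in cecum, and 353637 in colon. The next class was lower by a mean log2 ratio of 8.04 ± 0.36 (SD, 4 AD libraries). CD3E barcodes were at 1397, 742, 223, and 429 CPM in the same order of tissues.

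The levels of ENSBTAG00000047700 in the other AD classes followed JCHAIN. Per UMI of JCHAIN it had 1.58 to 2.88 UMIs (median 2.06) in all 21 AD profiles, plasma cells, T cells, macrophages, and epithelium included. Among the AD profiles its r with JCHAIN was 0.998, and over all 77 profiles 0.90. The ratio was not equal throughout, since in AD jejunum it was 1.63 (1.58–1.68) in CD3E and 2.11 (2.10–2.12) in JCHAIN-high barcodes. The part of free RNA in the levels outside JCHAIN-high barcodes was not tested.

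In NB libraries the JCHAIN-high class had enough barcodes in ileum (168), cecum (66), and colon (61), and ENSBTAG00000047700 was at 2467, 803, and 3083 CPM there. NB CD3E barcodes had 0 to 8.1 CPM. Per UMI of JCHAIN, NB profiles had 0.0124 to 0.198 UMIs (median 0.114, 24 profiles), below every AD profile. Those 24 are the NB profiles with more than 3 UMIs of each gene, which leaves out profiles with the fewest UMIs of ENSBTAG00000047700. JCHAIN itself was lower in NB JCHAIN-high barcodes, at 25259 to 64576 CPM against 141330 to 186063 in AD, and the gene was lower still.

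Many JCHAIN-high barcodes also carried a marker of another class, so they were counted a second time whatever else they held. There were 922 in AD duodenum, 555 in jejunum, 233 in cecum, and 253 in colon, and they had 97.7 to 98.7% of the UMIs of ENSBTAG00000047700. At least 10% of a barcode's own UMIs were from this gene in 75.6% of them in duodenum, 73.5% in jejunum, 49.4% in cecum, and 66.4% in colon. The median share was 32.6, 34.2, 7.60, and 34.1% of a barcode's UMIs, with a highest share of 61.6 to 77.6%. Few lay in between: 21.4 to 48.5% of these barcodes had under 1% of their UMIs from the gene, and 1.98 to 5.05% had from 1 to 10%.

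In NB libraries such barcodes numbered 566 in ileum, 188 in colon, 127 in cecum, 46 in liver, and 33 in rectum, at 1510, 2008, 5054, 4887, and 852 CPM. They had 68.1, 77, 96.9, 98.0, and 89.8% of the UMIs of the gene in these libraries, less than in AD libraries in ileum, colon, cecum, and rectum. NB reticulum, omasum, duodenum, and jejunum had 3 to 18 UMIs of the gene and no JCHAIN-high barcode. Only 1 barcode of cecum and 1 of liver passed the 10% level. The top cecum barcode alone held 7518 of the library's 9437 UMIs of the gene (79.7%), at 29.6% of its own UMIs, and the liver barcode 3255 of 3460 (94.1%), at 12.4%. The high library values of NB cecum and liver therefore each rested on a single barcode, and without it NB ileum and colon were the highest.

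**Figure D4:**
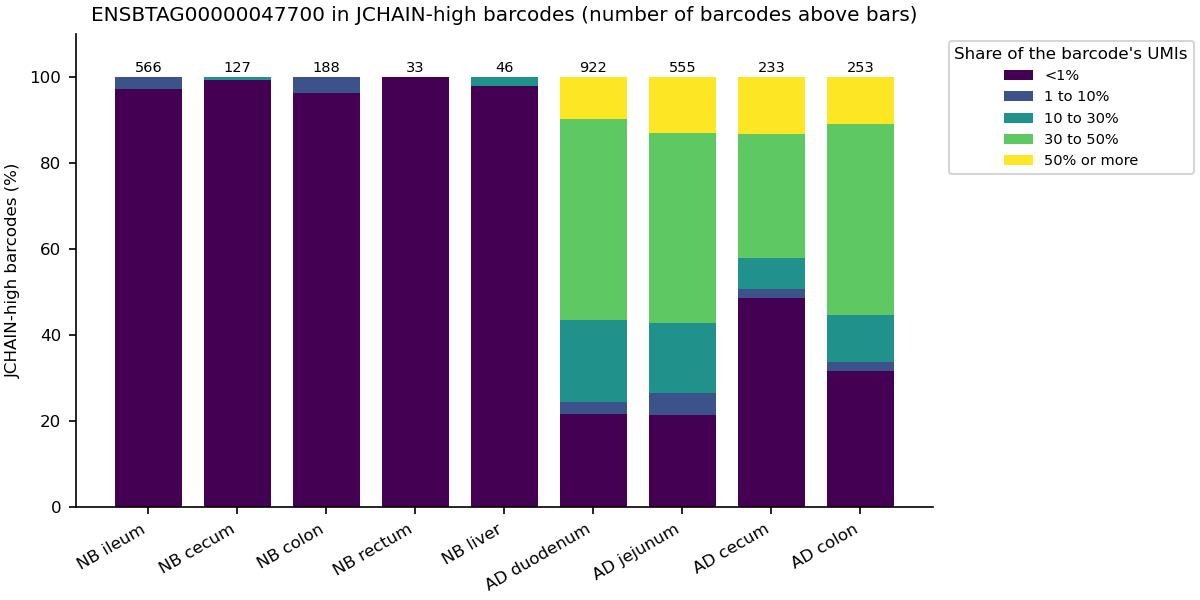
JCHAIN-high barcodes (%) of 5 NB and 4 AD libraries, stacked by the share of a barcode's own UMIs that came from ENSBTAG00000047700, with the number of barcodes above each bar. In AD libraries 49.4 to 75.6% of these barcodes had at least 10% of their UMIs from the gene, and in NB libraries 1 barcode of cecum and 1 of liver did.

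The barcodes of both stages carried plasma cell genes. MZB1, a chaperone of antibody assembly, had a UMI in 93.1 to 95.1% of AD and 87.2 to 99.2% of NB JCHAIN-high barcodes, and DERL3, a protein of endoplasmic reticulum quality control, in 91.2 to 92.3% and 84.8 to 95.7%. TNFRSF17, a survival receptor of plasma cells, was found in 86.8 to 89.3% of AD and 47.7 to 87.0% of NB barcodes. Depth differed as well, with median UMIs of 9506 to 11528 in AD and 4104 to 14575 in NB libraries. SDC1, a surface proteoglycan of plasma cells, was found in 25.6 to 40.7% of AD and 0.177 to 9.45% of NB barcodes. XBP1, also of the plasma cell list, was found in 25.8 to 31.6% of AD and 8.13 to 41.3% of NB barcodes. The stages overlapped in MZB1, DERL3, XBP1, and, barely, TNFRSF17. They overlapped neither in SDC1 nor in the share of barcodes dominated by ENSBTAG00000047700. The share of all genes without overlap in these barcodes is not given here. In JCHAIN-high barcodes without a marker of another class, the B cell list was at 112 to 226 CPM in 4 AD libraries. In the 3 NB libraries with enough of them it was at 434 to 1722 CPM. The NB barcodes thus held more B cell RNA, and its part in the differences between the stages was not tested.

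Within classes, ENSBTAG00000047700 was past 16-fold in 16 of 17 pairs of class and tissue. The exception was MS4A1 barcodes of colon, with 1246 CPM in AD and 87.2 in NB. Outside JCHAIN-high barcodes these folds compare the low levels that went with JCHAIN, and the same holds for its 16-fold difference in CD3E barcodes. Besides JCHAIN, the genes most like it over all libraries were ENSBTAG00000048135 (0.87), ENSBTAG00000050723 (0.86), ENSBTAG00000055240 (0.84), and ENSBTAG00000053508 (0.83), and in AD libraries ENSBTAG00000052233 (0.984), ENSBTAG00000048268 (0.976), and TNFRSF17 (0.972). All but the last have no symbol in the gene list. ENSBTAG00000048135 is in the row next to ENSBTAG00000047700, ENSBTAG00000050723 and ENSBTAG00000055240 lie 2 rows away, and the nearest named genes are CCDC127 at 4 and MKRN3 at 24 rows. Of 16497 consecutive pairs of named rows, 99.6% were on 1 chromosome in the RefSeq table. Order within a chromosome was not checked, and no name is drawn from a row's place.

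ENSBTAG00000037510 and ENSBTAG00000050052 were highest in CD3E barcodes at both stages and differed there far less between the stages than in the libraries as a whole. In AD CD3E barcodes ENSBTAG00000037510 was at 609 CPM in duodenum, 605 in jejunum, 677 in cecum, and 606 in colon. ENSBTAG00000050052 was at 448, 446, 456, and 456 CPM. Both were nearly level across the 4 tissues.

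NB CD3E barcodes held both genes in all 9 libraries with enough of them. ENSBTAG00000037510 was at 336 CPM in NB duodenum (58 barcodes), 412 in jejunum, 342 in cecum, and 340 in colon, and reached 581 in salivary gland, 527 in liver, and 503 in abomasum. ENSBTAG00000050052 was at 115, 136, 87.8, and 132 CPM in the same 4 tissues and reached 229 in salivary gland and 179 in liver. CD3E barcodes of salivary gland and liver had the highest NB levels of both. Those of liver carried more of the neutrophil list than of the T cell list without CD3E. AD libraries were above every NB library for either gene. Of 8595 genes tested in CD3E barcodes, 30.3% were higher in AD in 4 of 4 tissues. The share of genes above every NB library is not given here.

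Within CD3E barcodes the AD to NB fold of ENSBTAG00000037510 was 1.81 (1.46–2.28) in duodenum, 1.47 (1.28–1.69) in jejunum, 1.98 (1.85–2.12) in cecum, and 1.78 (1.68–1.89) in colon, a mean log2 ratio of 0.81 ± 0.18 (SD, 4 tissues). It passed 2-fold in 0 of 4 tissues, where 2.57% of genes passed it in 4 of 4. ENSBTAG00000050052 was at 3.90 (2.70–5.88), 3.28 (2.58–4.23), 5.19 (4.55–5.94), and 3.45 (3.14–3.79), a mean log2 ratio of 1.95 ± 0.29, and passed 2-fold in 4 of 4. The median over all genes tested was 0.18. At 16-fold, 2 of 8595 genes (0.0233%) were past the threshold in CD3E barcodes of 4 of 4 tissues, namely ENSBTAG00000040367 and ENSBTAG00000047700.

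**Figure D5:**
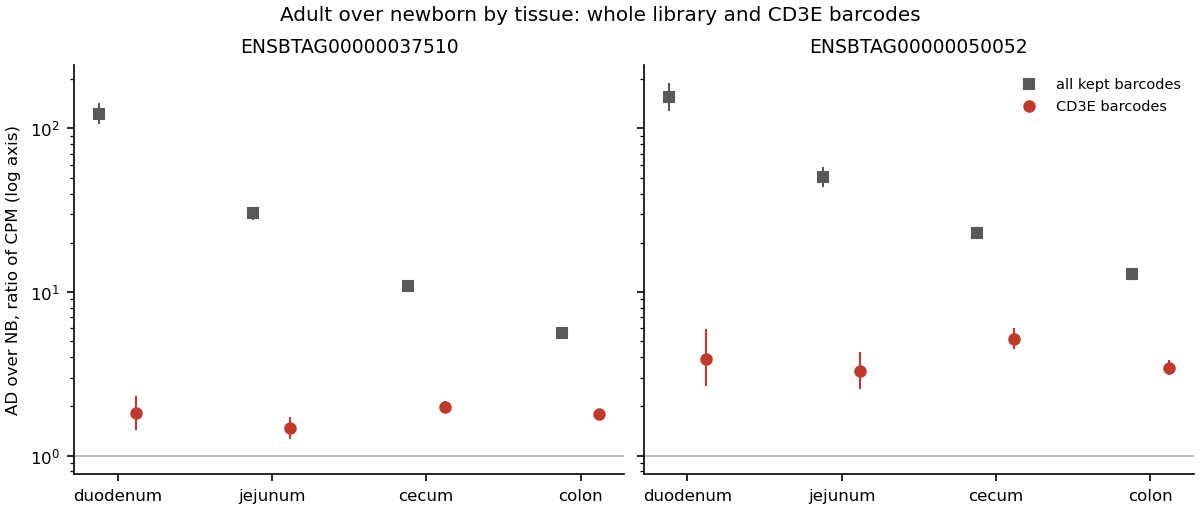
AD to NB fold of ENSBTAG00000037510 (left) and ENSBTAG00000050052 (right) in duodenum, jejunum, cecum, and colon on a log axis, over all kept barcodes (grey squares) and within CD3E barcodes (red circles), with 95% counting intervals as bars and a line at 1. Within CD3E barcodes the folds lie between 1.47 and 1.98 and between 3.28 and 5.19, below those over all kept barcodes in every tissue.

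The T cell genes of the class moved with stage too. CD3D, CD3G, CD2, and CD247 together did not overlap between AD and NB CD3E barcodes, and their folds in the 4 tissues were 1.91 in duodenum, 3.64 in jejunum, 4.88 in cecum, and 4.68 in colon. Per UMI of these genes, ENSBTAG00000037510 had 0.193 to 0.417 UMIs in AD and 0.439 to 0.831 in NB libraries, so on this scale the order was turned and NB was higher with no overlap. ENSBTAG00000050052 had 0.145 to 0.307 in AD and 0.149 to 0.274 in NB libraries, which overlapped. The part of these T cell genes in the folds was not tested. No share over all genes is given for these comparisons of the stages.

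ENSBTAG00000037510 had 1.33 to 1.49 UMIs per UMI of ENSBTAG00000050052 in the 4 AD libraries and 2.47 to 3.89 in the 9 NB libraries, for CD3E barcodes. In MS4A1 barcodes it had 2.44 to 3.45 and 3.88 to 7.45, with NB cecum left out because it held only 1 UMI of the pair. The lowest NB value in MS4A1 barcodes was that of liver, with 50 barcodes and an interval of 1.74–9.76 that covers the AD range. These barcodes held more of the natural killer list than of the B cell list without MS4A1. The ratios of the stages did not overlap in CD3E barcodes, though no other pair of genes is set beside them, and this ratio does not depend on the CPM total. It shows an unequal change and not which gene changed. For CD3E barcodes thinned to 1000 UMIs, ENSBTAG00000050052 was found in 36.8 to 41.2% of AD barcodes with ENSBTAG00000037510 and in 35.1 to 38.4% without, and in 9.96 to 28.6% and 7.84 to 17.2% of NB barcodes. In AD barcodes the detection of either gene thus told little of the other.

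Other classes of the AD libraries held less of the pair. CD3E barcodes were above the next class by a mean log2 ratio of 1.52 ± 0.56 (0.71 to 1.94) for ENSBTAG00000037510 and 2.68 ± 0.32 (2.22 to 2.95) for ENSBTAG00000050052. MS4A1 barcodes had 157 to 232 and 57.2 to 70.8 CPM, C1QA barcodes 22.9 to 46.9 and 11.5 to 32.0, and JCHAIN-high barcodes 23.4 to 42.0 and 8.4 to 12.5 CPM. Thinned to 1000 UMIs, 44.5 to 47.9% of AD CD3E barcodes (83.2 to 87.9% unthinned) had ENSBTAG00000037510. For ENSBTAG00000050052 the share was 36.4 to 39.7% (76.3 to 79.8%). C1QA barcodes had 1.24 to 5.69% and 0.617 to 3.35%, and EPCAM barcodes of 3 AD libraries 7.26 to 22.0% and 2.02 to 8.18%. COL1A2 barcodes of AD colon had 0.806% for each gene, and PECAM1 barcodes of AD jejunum 0 and 1.06%. MS4A1 barcodes had 17.4 to 20.9% and 7.99 to 9.64%. The CD3E shares were above all of these, with MS4A1 and EPCAM barcodes the closest. The part of free RNA in the other classes was not tested.

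In NB libraries MS4A1 barcodes differed from tissue to tissue. MS4A1 barcodes of NB salivary gland had 334 CPM of ENSBTAG00000037510 and 76.3 of ENSBTAG00000050052, those of colon 113 and 15.2, those of ileum 97.4 and 16.2, and those of liver 84.5 and 21.8. The 51 of NB cecum, a class that goes against its name, had 0 UMIs of the former and 1 UMI of the latter. MS4A1 barcodes of NB salivary gland were thus above those of all AD libraries for ENSBTAG00000037510, the reverse of the order in CD3E barcodes. For ENSBTAG00000050052 their 76.3 CPM came from 134 UMIs and lay close to the highest AD value, 70.8 CPM. The T cell list was at 26.2 CPM in those 358 barcodes and at 8.96 to 82.4 CPM in AD MS4A1 barcodes. The B cell list was at 2489 and at 2369 to 3540 CPM. The part of free RNA in these levels was not tested.

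The lowest lead of CD3E barcodes was in jejunum, where the next class was epithelium. The 161 EPCAM barcodes of AD jejunum had 368 CPM of ENSBTAG00000037510 and 95 of ENSBTAG00000050052, against 84.3 and 25.7 in cecum and 93.7 and 63.3 in colon, and NB jejunum EPCAM barcodes had 1.12 CPM of ENSBTAG00000037510. After these values were seen, the barcodes were split by the tuft cell list (POU2F3, TRPM5, and AVIL). In jejunum the 120 without a tuft gene had 405 CPM (374–438), with a UMI in 75.8% of them, and the 41 with one had 85.1 CPM. The former held 13.7 CPM of PTPRC, the common leukocyte antigen, 0.651 of CD2, and 1.95 of CD3D. By the class rule EPCAM barcodes have no UMI of CD3E, so low levels of other T cell genes were partly set in advance. The part of T cell RNA in the level of ENSBTAG00000037510 there was not tested. Some genes of like pattern were high in the same 161 barcodes and some were not. The former were ENSBTAG00000054649 at 1128 CPM, UBD at 587, a GIMAP7 (ENSBTAG00000030940) at 262, GIMAP8 at 196, and GIMAP4 at 136. GIMAP5, the most alike gene, was at 58.7 CPM, and the other GIMAP7 ids were at 27.1 (ENSBTAG00000008550), 1.73 (ENSBTAG00000009850), and 0 (ENSBTAG00000001198).

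ENSBTAG00000037510 was lower in CD4 than in CD8 barcodes in 4 of 4 AD libraries, with a log2 ratio of −0.20 ± 0.08 (−0.27 to −0.083), and ENSBTAG00000050052 had a log2 ratio of −0.089 ± 0.13 (−0.28 to 0.016). Barcodes with GZMA, a granzyme of cytotoxic cells, differed from those without by 0.25 and 0.13, and those with GNLY, a pore-forming granule protein, by 0.23 and 0.12, higher in 4 of 4 AD libraries for both genes. GZMA and GNLY are 2 of the 11 genes of the cytotoxic list, and splits by the others are not given here. Barcodes with CD4 against those without gave −0.13 and −0.041 in AD libraries, and 0.23 (−0.31 to 0.56) for ENSBTAG00000037510 and −0.36 (−0.52 to −0.20) for ENSBTAG00000050052 over 5 NB libraries. With CD8A the NB values were 0.12 and 0.25 over 6 libraries. With GZMA they were 0.19 and −0.22 and with GNLY 0.40 and −0.12, over 2 libraries each. The difference between the stages in these splits was not tested. The largest of these splits was by TYROBP, an adaptor of activating receptors in natural killer and myeloid cells. CD3E barcodes with TYROBP had 345 CPM of ENSBTAG00000037510 against 638 without, a log2 ratio of −0.91 (−1.29 to −0.61), and 234 against 462 of ENSBTAG00000050052, a log2 ratio of −1.0 (−1.37 to −0.78). In the 3 NB libraries where it could be made, the same split gave −0.76 and −1.01, so the pair was lower with TYROBP at both stages. In AD libraries the barcodes with TYROBP also held 84.0 to 926 CPM of the macrophage list against 4.76 to 53.8 without, and 828 to 1793 CPM of the T cell genes other than CD3E against 1480 to 3159. The part of RNA from macrophages in this split was not tested.

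The genes whose pattern was most like this pair were GIMAP genes, which encode small GTPases of lymphocytes. Over 77 profiles GIMAP5 had r = 0.958 with ENSBTAG00000037510 and 0.937 with ENSBTAG00000050052, and the pair had 0.951 with each other. UBD, a ubiquitin-like protein, followed for ENSBTAG00000037510 (0.927) and GIMAP4 for ENSBTAG00000050052 (0.914), and in the 21 AD profiles GIMAP8 had 0.928 and 0.960. In the gene list ENSBTAG00000050052, a GIMAP7 (ENSBTAG00000008550), ENSBTAG00000037510, and GIMAP5 stand in consecutive rows. In CD3E barcodes that GIMAP7 was at 1103 to 1243 CPM in AD and 278 to 1090 in NB libraries, and GIMAP5 at 302 to 396 and 139 to 323. Their folds were 1.55 to 3.16 and 1.77 to 2.57 over the 4 tissues, so the fold of ENSBTAG00000050052 lay above these list neighbours in each tissue. Other genes of like pattern were above it in some tissues, with GIMAP4 at 3.57 in jejunum and CRYBG2 at 13.3 in duodenum, 6.05 in cecum, and 5.71 in colon.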

How the data were processed

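The deposited values are raw UMI counts per gene and barcode, which the authors made with Cell Ranger 3.1.0 (per the labels) on the ARS-UCD1.2 cattle genome. The annotation release is not given in the sources used here. The same gene list serves all 15 libraries, and none of the 4 ids was found in the RefSeq table (ARS-UCD2.0), so no sequence is shown.

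A barcode was kept, by the limits of the study's methods, when it had 500 to 4000 genes, fewer than 50000 UMIs, and less than 40% of its UMIs from 13 mitochondrial genes. No doublet caller was run, and barcodes with markers of several classes were set aside. Depth was 17707625 to 129458578 UMIs per library. The 95% intervals are exact Poisson for levels and Clopper-Pearson for shares. Those of folds and of UMI ratios come from the Clopper-Pearson interval of 1 count within the sum of both. Log2 ratios used CPM + 1. A gene was tested for 16-fold differences at 10 CPM or more. Thinning drew 1000 UMIs per barcode with a fixed seed. The 5 most alike genes were taken by Pearson r of log2 CPM among genes at 20 CPM or more. Groups come from the labels, and with 1 library per tissue and stage no p-value was computed.

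The genes named are the 4 ids, marker lists, the most alike genes, list neighbours, and genes at the threshold. The genes and the lists were chosen with earlier results of these data known. The lists without the class marker, the totals without ENSBTAG00000047700 and JCHAIN, and the epithelial split were chosen after the values had been seen. Alternatives for the filters, class rule, pseudocount, thinning, and tissues are given at the end. Python 3.11.15, numpy 2.4.6, scipy 1.17.1, pandas 2.3.3, and matplotlib 3.10.9 were used.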

Additional observations from a re-analysis of the deposited data

How the results depend on the processing

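Of 210 values under alternative settings, 169 moved by less than the spread of the 4 AD libraries or, for a number of genes, by less than 1.5 times, 40 moved by more, and 1 was reversed. Of the 210, 31 belong to alternatives chosen after the data had been seen. When barcodes with markers of other classes were allowed, which lets mixed barcodes into every class, the leads of the highest class fell to log2 0.28 (ENSBTAG00000040367), 1.61 (ENSBTAG00000047700), 0.86 (ENSBTAG00000037510), and 1.12 (ENSBTAG00000050052), the counts of genes with a leading class were all 0, the CD4 to CD8 log2 ratio was −0.070 for ENSBTAG00000040367 and turned from 0.10 to −0.72 for ENSBTAG00000047700, the thinned shares were 43.8% and 34.8% for ENSBTAG00000037510 and ENSBTAG00000050052, and the CD3E log2 ratio of ENSBTAG00000037510 was 1.06. Totals without genes above 1% of UMIs gave ENSBTAG00000040367 a mean of 686 CPM (536 ± 90.2 with all genes) and a lead of 0.17, and ENSBTAG00000047700 a lead of 9.03. Without the 8% of barcodes with the most UMIs, ENSBTAG00000047700 was at a mean of 10351 CPM (34719 with them) with a lead of 7.34. A pseudocount of 5 or 0.5 CPM gave ENSBTAG00000040367 a mean log2 ratio of 6.56 or 8.85, and the genes past 16-fold in 4 of 4 tissues were 13, but 6 with a pseudocount of 5 and 22 with all deposited barcodes.

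Shares of barcodes with a UMI depend on depth by construction. Thinned to 500 or 2000 UMIs or not thinned, they were 32.5, 79.9, and 91.8% for ENSBTAG00000040367 (53.6% at 1000), 27.0, 69.3, and 85.4% for ENSBTAG00000037510 (45.9%), and 20.6, 59.2, and 78.5% for ENSBTAG00000050052 (37.3%), and not thinned 99% for ENSBTAG00000047700 (91.8%). Of the 5 most alike genes, the AD libraries alone shared 0 (ENSBTAG00000040367), 2 (ENSBTAG00000047700), 3 (ENSBTAG00000037510), and 2 (ENSBTAG00000050052), and rank correlation shared 1 for ENSBTAG00000040367. The number of genes past 16-fold in every class and tissue was 2 with all deposited barcodes, with 2 UMIs of the marker, with other markers allowed, and without colon, and ENSBTAG00000047700 was the added gene each time. Leaving out each tissue in turn, that number was 1 to 2, the leads were 0.41 to 0.47, 7.89 to 8.14, 1.37 to 1.78, and 2.59 to 2.83, the CD4 to CD8 log2 ratios were −0.04 to −0.01, 0.05 to 0.12, −0.24 to −0.18, and −0.12 to −0.02, and the CD3E log2 ratios of ENSBTAG00000037510 and ENSBTAG00000050052 were 0.75 to 0.89 and 1.81 to 2.03. The split of T cells by TRDC was not run. No paired analysis was possible because the labels give no replicate numbers and no test was made, and the 4 tissues with both stages were compared tissue by tissue.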
